A study of Mus musculus with 6 samples.

Results

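The genes described here encode splicing factors and heterogeneous nuclear ribonucleoproteins (hnRNPs), measured as transcripts in mouse zygotes 10 h after Trim-away of the zona pellucida protein ZP3. They were chosen by name and not by their values, as the protein-coding genes whose symbol starts with Srsf and a digit, Sf3a or Sf3b, Snrp, Prpf, Hnrnp or U2af. The rule found 68 of the 25731 genes in the deposited table, in which 16159 genes are protein coding. They fell into 11 Srsf, 9 Sf3, 12 Snrp, 13 Prpf, 20 Hnrnp and 3 U2af genes. Genes named Snrnp are outside the rule and are given below with the other genes of the pathway.

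In Trim-away, an antibody is delivered to the cytoplasm along with the ubiquitin ligase TRIM21, which recognises the bound antibody and directs the complex, target included, to proteasomal degradation. Each of the 6 libraries was made from the total RNA of a pool of 13 wild-type zygotes of the B6C3F1 x CD1 background at E0.5, with 3 pools for ZP3 Trim-away and 3 for the control. Every zygote was injected 15 h after hCG, the hormone used to trigger ovulation, with 0.2 mg/mL of mCherry-Trim21 mRNA and, as a tracer, 0.02 mg/mL of Oregon green dextran beads. ZP3 Trim-away zygotes received in addition a Proteintech antibody against ZP3 at 1 mg/mL, whereas control zygotes received the buffer of that antibody, and RNA was taken 10 h later at the pronuclear stage. These are the values of the labels, and the study's methods give a slightly different hour and slightly different concentrations. Because the controls carried TRIM21 but no antibody, the presence of an antibody in the cytoplasm and the loss of ZP3 cannot be told apart. The study describes the degradation of ZP3 as partial, and these libraries hold no measure of ZP3 protein. The submitters call the pools biological replicates without stating whether they came from separate collections, so that the p-values refer to differences among these pools, part of which may be technical.

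Introns are cut out of nuclear transcripts by the spliceosome, which assembles on each intron from small nuclear ribonucleoproteins (snRNPs), most of them a short RNA held in a ring of Sm proteins, and from a large number of further factors. SR proteins, encoded by the Srsf genes, and hnRNPs bind the transcript itself and shift the choice of splice sites, often in opposite directions, and many hnRNPs also accompany the mRNA to the cytoplasm and bear on its stability and translation. A zygote inherits most of its transcripts from the oocyte, and transcription of the embryonic genome has barely begun at the pronuclear stage.

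Many of these genes share sequence with other annotated genes, and this limits which of their reads can be placed. Counting of this kind does not usually assign reads that match several places. Shared windows can lie in processed copies elsewhere or in a gene at the same locus, and these were not told apart. Snrpf, for example, shared 54.8% of its windows with Ccdc38, and Hnrnpm 28.4% with March2. Such sharing was uneven over the family and was measured in windows of 72 bases, the length of the reads. Of the 68 genes, 26 had no window in common with the transcripts of another annotated gene, and 13 shared more than 20% of their windows. The largest shares were 97.2% in U2af1l4, 86.2% in Snrpf, 62.4% in Hnrnpf and 54.4% in U2af1, and the levels of these genes are uncertain. Hnrnpa1, with windows in common with 14 other genes, shared 27.0%, and Hnrnpk shared 31.5%. By contrast, Srsf7, Snrpb, Snrpb2, Prpf6, Prpf8, Prpf38a, Sf3b1, Hnrnpu and Hnrnpa2b1 shared none. No source says that strand was used in counting, and reads of genes lying opposite each other cannot be told apart.

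Library totals, recovered from the RPKM values (read numbers divided by the length of the exons and by the size of the library), were 15746632, 15725979 and 15290999 reads in ZP3 Trim-away and 18567366, 20005724 and 17378251 reads in control. A gene with 0 reads could have had up to 3 within counting error, which for 1 kb of exon is 0.150 to 0.196 RPKM, other sources of error not included. The deposited columns of control replicates 2 and 3 were found to be means with control replicate 1, and the values given here are those after separation. Reads assigned to Trim21, those of the injected mRNA among them, made up 9.31%, 9.12% and 10.99% of all reads in ZP3 Trim-away and 18.09%, 16.25% and 14.61% in control, and Trim21 passed the test at a log2 fold change of -0.73 ± 0.10 (SE, limma, adjusted p = 0.0274), while Zp3 itself, whose mRNA is not the target of Trim-away, stood at 0.34 ± 0.21 (adjusted p = 0.411). More genes had at least 1 read in the Trim-away pools (18794 to 20316) than in the controls (13202 to 14501). All 11 oocyte and zygote markers were present in every pool, with Dppa3 between 3709 and 6552 RPKM. Their summed level was 8364 to 9664 RPKM in ZP3 Trim-away and 6096 to 7374 RPKM in control, with a median log2 fold change of 0.42, and 6 of the 11 (54.5%, against 20.3% of all genes tested) were higher in every Trim-away pool, Ooep at 0.87 and Npm2 at 0.76 among them. Of 12 cumulus and granulosa markers, 10 were listed in the table, with summed levels of 15.9 to 22.9 RPKM in ZP3 Trim-away and 8.44 to 17.1 RPKM in control. These markers differed in direction. Their most abundant gene, Cyp19a1, was at 4.599 to 6.43 RPKM in ZP3 Trim-away and 8.04 to 10.03 RPKM in control, Inha at 2.33 to 7.49 RPKM in ZP3 Trim-away and at 0 in the 3 controls, and Tnfaip6 at 3.57 to 6.95 RPKM in ZP3 Trim-away and 0 to 1.68 RPKM in control, all without overlap. Cyp11a1 was at 0.489, 3.56 and 1.28 RPKM in ZP3 Trim-away and Amhr2 at 0.380, 0 and 0.815 RPKM, both at 0 in every control. Fshr and Foxl2 were at 0 in every control and at most 0.35 RPKM in ZP3 Trim-away. The groups overlapped for Inhba, Has2 and Ptgs2. Sperm markers summed to 1.58 to 2.09 RPKM in ZP3 Trim-away and 2.39 to 7.77 RPKM in control, oviduct markers to 5.14 to 12.6 RPKM in ZP3 Trim-away and 1.88 to 6.20 RPKM in control, and blood markers to at most 0.0529 RPKM. Of these markers, 3 of 7 for sperm, 4 of 6 for oviduct and 1 of 6 for blood, Alas2, were listed in the table. The part of the Trim21 level, of these markers and of the number of detected genes in the results below was not tested.

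Taken as a family, the splicing factor and hnRNP genes were well represented in the zygote, and every gene but Srsf12 had reads in pools of both groups. Their mean levels over the 6 pools ran from 0.0406 RPKM in Hnrnpll to 117 RPKM in Hnrnpc, with a median of 5.32 RPKM, and 26 were at 10 RPKM or above. The most abundant after Hnrnpc were Prpf6 at 93.9 RPKM, Snrpd1 at 85.3 RPKM, Snrpd3 at 84.6 RPKM, Snrpb2 at 83.9 RPKM and Hnrnpa1 at 77.1 RPKM.

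Summed over the 68 genes, the level was 1185, 1302 and 1186 RPKM in ZP3 Trim-away and 1169, 1168 and 1215 RPKM in control. The sums of the groups overlapped, since control 3 was above Trim-away 1 and 3. The families shared this total unevenly. The Snrp genes summed to 398, 489 and 385 RPKM in ZP3 Trim-away and to 344, 357 and 407 RPKM in control, and the Hnrnp genes to 344, 362 and 354 RPKM in ZP3 Trim-away and to 345, 333 and 376 RPKM in control. The Srsf genes were the family whose sums did not overlap, at 82.9, 89.0 and 78.2 RPKM in ZP3 Trim-away and 68.7, 69.0 and 62.9 RPKM in control. Srsf7 (means of 19.5 RPKM in ZP3 Trim-away and 10.9 RPKM in control) and Srsf3 (11.5 and 7.20 RPKM) differed most among them. The sums over all genes did not overlap either, at 304056, 317900 and 305640 RPKM in ZP3 Trim-away and 287539, 294201 and 296153 RPKM in control. The sums of the Prpf, Sf3 and U2af genes overlapped between the groups. As in any bulk sample, a smaller number of cells of a type and less RNA per cell cannot be told apart, and RPKM gives each gene only relative to the rest of its library.

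**Figure D1:**
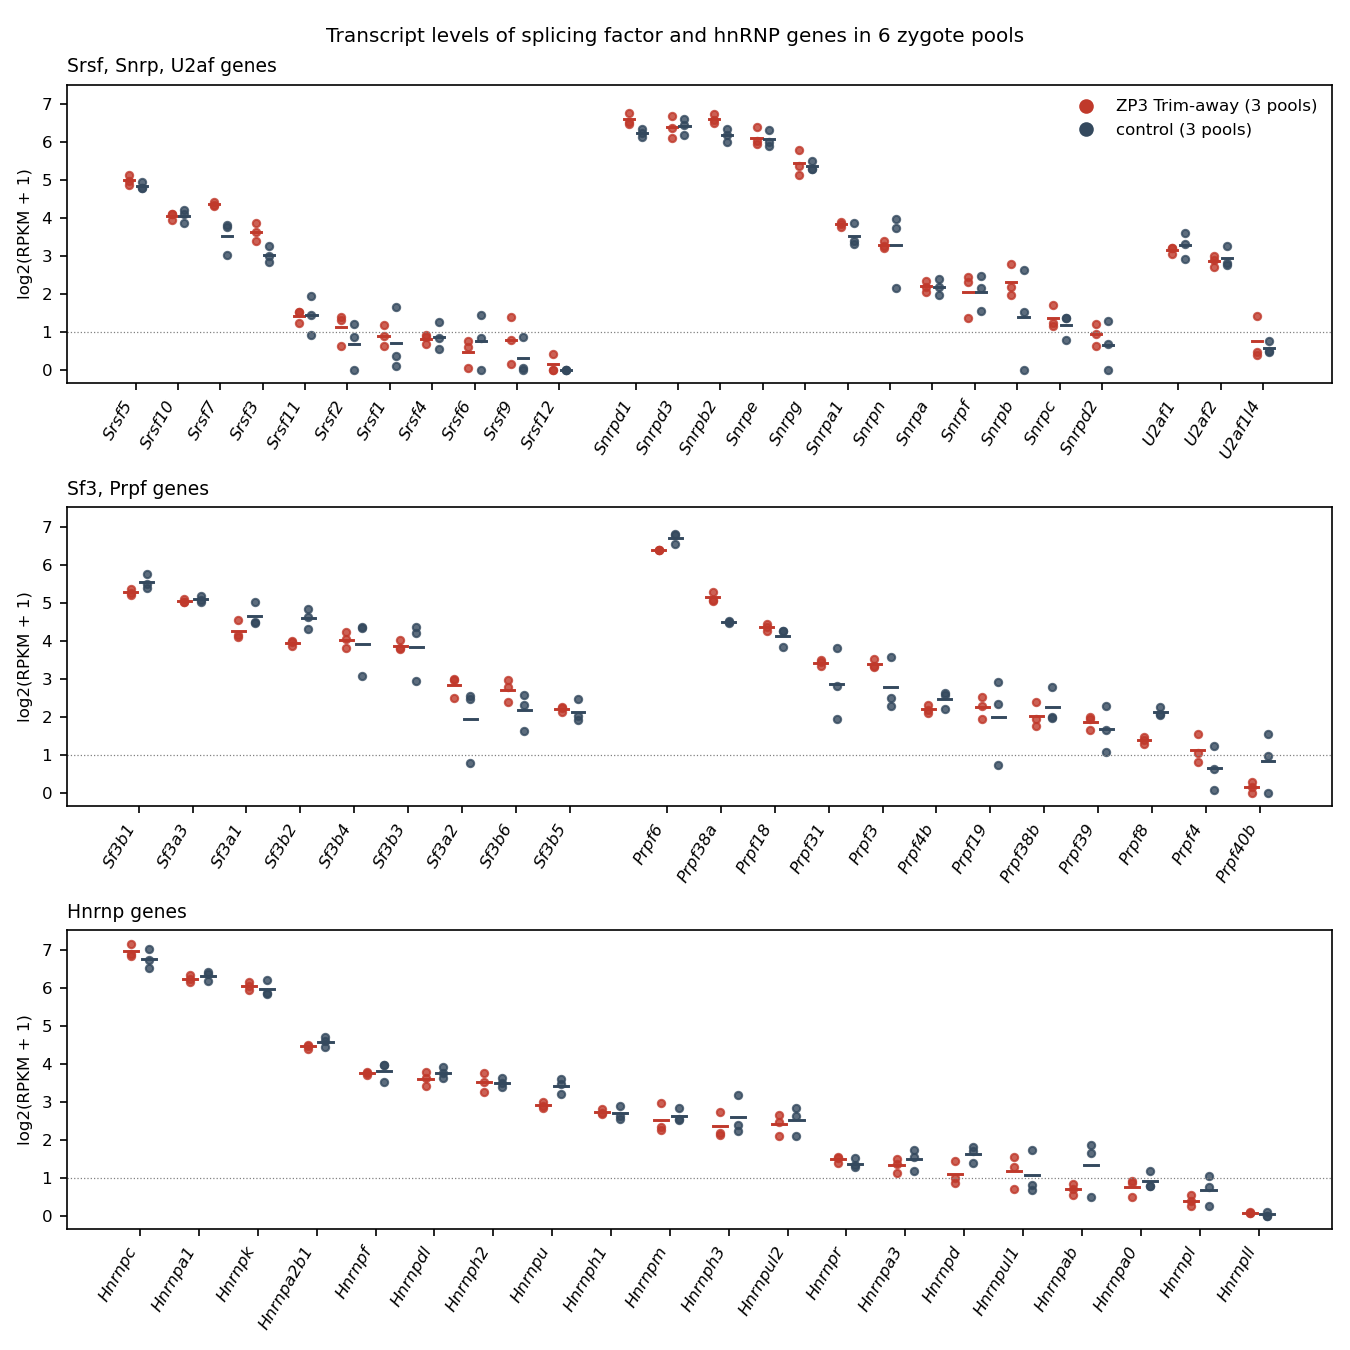
Level of 67 of the 68 genes on a log2(RPKM + 1) scale in each pool, by family, with ZP3 Trim-away in red to the left of control in blue and a short bar at each group mean; the dotted line marks 1 RPKM. Most pairs of groups overlap, and the control pools are often spread more widely than the Trim-away pools, as in Snrpb, Snrpn, Sf3a2 and Prpf19.

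The comparison asks whether these transcripts differed shortly after ZP3 was targeted, at a time when zygotes of both groups were still at the pronuclear stage. Of the 68 genes, 55 reached a mean of 1 RPKM over the 6 pools and were tested (5 Srsf, 9 Sf3, 11 Snrp, 11 Prpf, 17 Hnrnp and 2 U2af genes). None passed limma's test at an adjusted p under 0.05, in a comparison that called 0.632% of all 9965 genes tested, 0.592% as higher and 0.0401% as lower in ZP3 Trim-away. The smallest adjusted p among them was 0.073, that of Prpf38a. With the control columns as deposited, before their separation, 16 of these genes passed, 9 higher and 7 lower, in a comparison that called 3707 genes, control replicate 1 then entering all 3 control columns. At an unadjusted p under 0.05, 5 were higher (9.09%) and 4 were lower (7.27%), against 15.8% and 3.7% of all genes tested. The log2 fold changes, given throughout as ZP3 Trim-away minus control on the log2(RPKM + 1) scale, on which changes of weakly expressed genes come out too small, ran from -0.74 in Prpf8 to 0.92 in Snrpb, and 0 of 55 exceeded 1 in size.

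The median log2 fold change of the 55 genes was 0.01, with quartiles at -0.14 and 0.20, and 29 were positive and 26 negative. Over all genes tested the median was 0.22 and 67.3% were positive, so the splicing factor and hnRNP genes stood 0.20 below the median of all genes. The level of 0 depends on the scaling: with median-ratio scaling the median of all genes was 0.05 and that of these genes -0.16, and 17 were positive and 38 negative. The distance between these medians was -0.21 under that scaling, against -0.20 without it. By family, the median log2 fold change was 0.15 for Srsf, 0.07 for Snrp, 0.03 for Sf3, 0.20 for Prpf, -0.11 for Hnrnp and -0.10 for U2af, and with median-ratio scaling Srsf, Snrp and Sf3 turned negative at -0.05, -0.13 and -0.16, while Prpf was at 0.05, Hnrnp at -0.28 and U2af at -0.28. The 95% interval of the log2 fold change lay within -1 and 1 for 36 of the 55 genes and within -0.5 and 0.5 for 8. For most of the genes a difference of 0.5 or more on the log2 scale was thus not excluded.

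**Figure D2:**
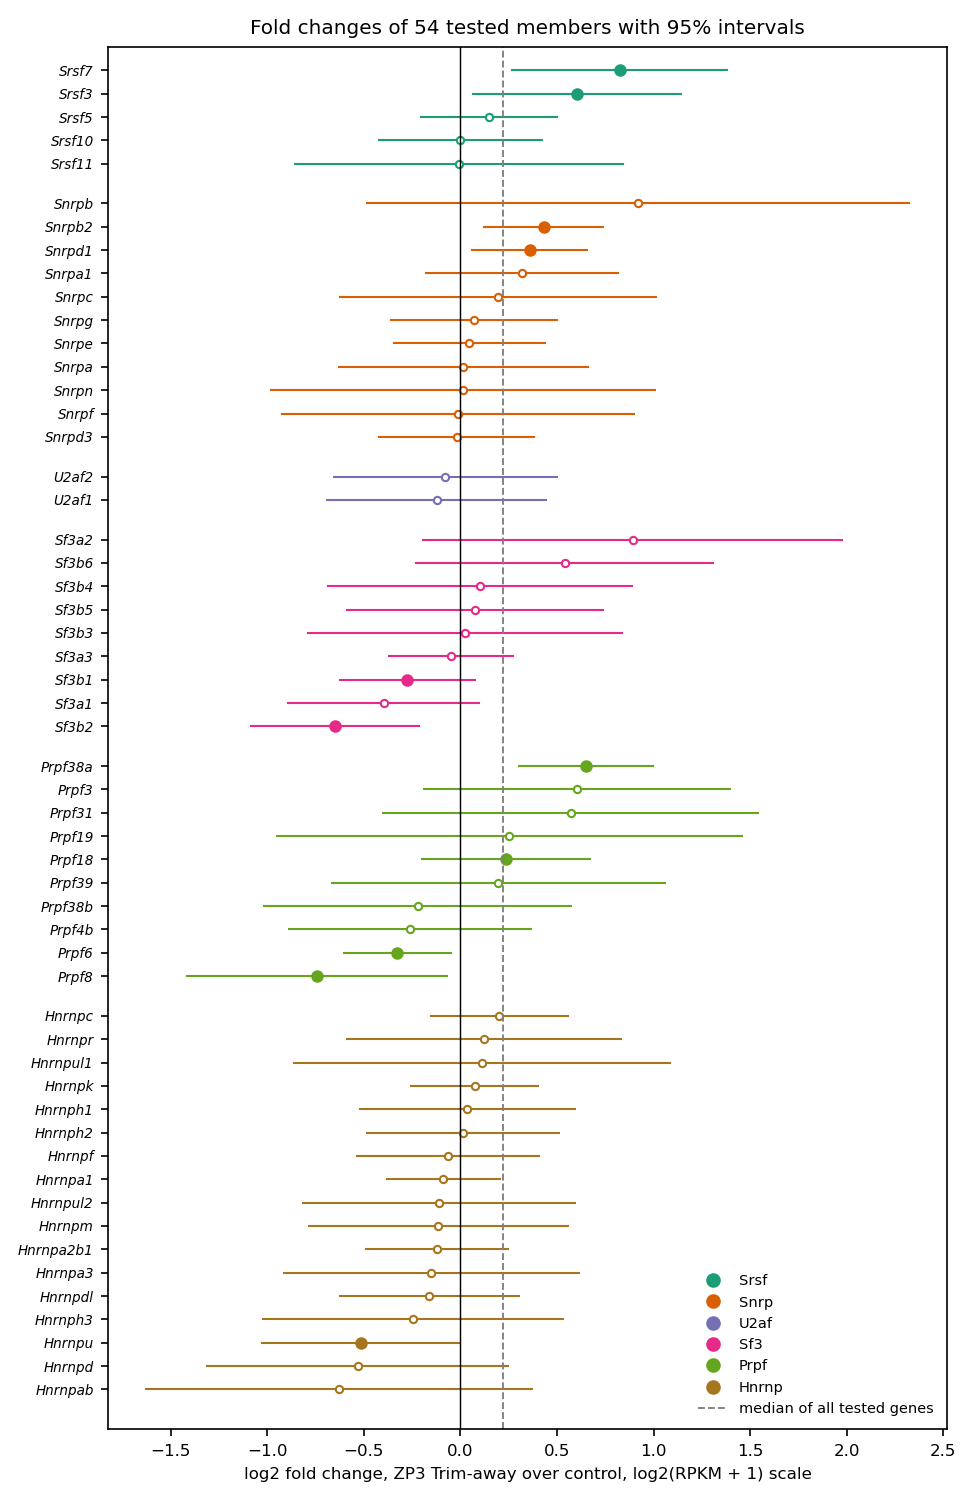
Log2 fold change of 54 of the 55 tested genes, ZP3 Trim-away minus control on the log2(RPKM + 1) scale, with 95% intervals from limma, coloured by family; filled points are genes whose groups did not overlap, the solid line is 0 and the dashed line is the median of all genes tested, 0.22. The points lie on both sides of 0, from -0.74 in Prpf8 to 0.92 in Snrpb, and 9 of the intervals leave out 0.

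The control pools were spread more widely than the Trim-away pools. The median SD of the 55 genes on the log2(RPKM + 1) scale was 0.138 in ZP3 Trim-away and 0.252 in control, and 42 of the 55 had the larger SD in control. For all genes tested the median SD was 0.202 in ZP3 Trim-away and 0.436 in control. Control 3 stood more than 1 log2 unit from the mean of the other 2 controls for 7 of the 55 genes, control 1 for 5 and control 2 for 1, whereas the 3 Trim-away pools did so for 1 gene between them. Of the 68 genes, control 1 had 5 at 0 reads, control 2 had 2 and control 3 had 4, against 0, 2 and 1 in Trim-away 1, 2 and 3.

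Between the groups, 6 of the 55 genes were higher in every Trim-away pool than in every control pool and 6 were lower (10.9% each), whereas of all genes tested 20.3% were higher and 6.34% lower in this way. The 6 higher genes were Srsf3, Srsf7, Snrpb2, Snrpd1, Prpf18 and Prpf38a, and the 6 lower genes included Sf3b1, Sf3b2, Prpf6, Prpf8 and Hnrnpu. With median-ratio scaling the counts were 2 higher and 12 lower (3.64% and 21.8%), against 12.3% and 11.95% of all genes under the same scaling. Leaving out 1 pool, which leaves fewer values to overlap, gave 10 higher and 11 lower without control 1, 10 and 8 without control 2, 11 and 10 without control 3, and 7 to 8 higher and 8 to 9 lower without any 1 of the Trim-away pools. The shares of all genes grew as well, to 28.0% higher and 10.9% lower without control 1, 30.2% and 11.8% without control 2, and 30.2% and 12.1% without control 3, and were 23.5% to 24.2% and 7.98% to 9.09% without a Trim-away pool.

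**Figure D3:**
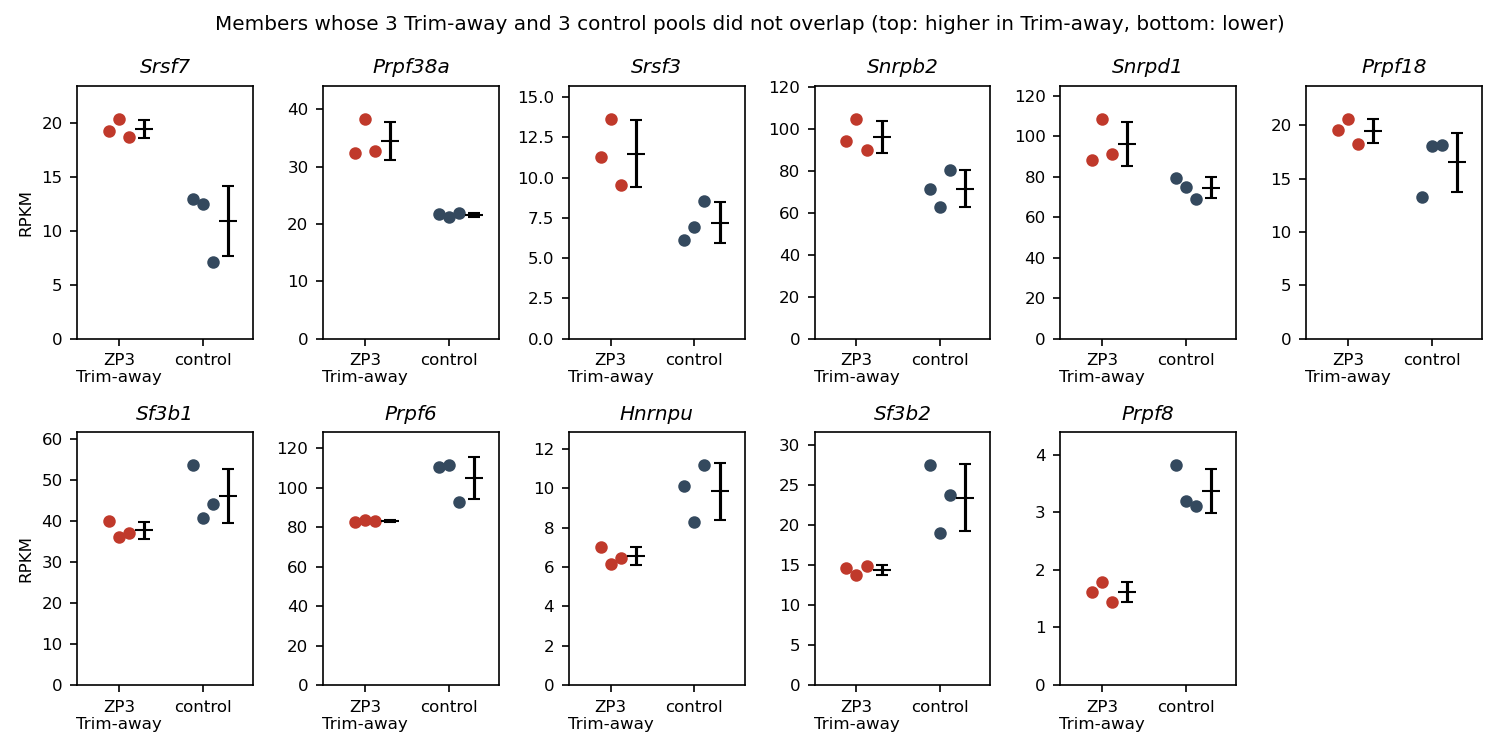
RPKM of 11 of the 12 genes whose 3 ZP3 Trim-away pools (red, left) and 3 control pools (blue, right) did not overlap, 6 higher ones above and 5 lower ones below; the bar beside each set of points is the mean with 1 SD, and every axis starts at 0. In Prpf18 the groups nearly touch, with Trim-away 3 at 18.3 RPKM just above control 3 at 18.2 RPKM.

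Among the SR proteins, Srsf7 and Srsf3 were higher in ZP3 Trim-away without passing the test. Both encode small SR proteins that act in splicing and also help to hand spliced mRNA to the export machinery. Srsf7 was at 19.3, 20.4 and 18.7 RPKM in ZP3 Trim-away and at 13.0, 12.5 and 7.13 RPKM in control. Its lowest Trim-away pool was above the highest control, and control 3 was well below the other controls. The log2 fold change of Srsf7 was 0.82 ± 0.24 (SE, n = 3 pools each, limma adjusted p = 0.121, 95% interval 0.27 to 1.38).

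Srsf3 was at 11.3, 13.6 and 9.50 RPKM in ZP3 Trim-away and at 6.12, 6.93 and 8.57 RPKM in control. The groups did not overlap, but Trim-away 3 and control 3 were close, and the log2 fold change was 0.60 ± 0.24 (limma adjusted p = 0.211). Srsf5, the most abundant gene of the family, was at 30.5, 34.0 and 28.1 RPKM in ZP3 Trim-away and at 30.1, 26.7 and 26.5 RPKM in control. Its groups overlapped through control 1, at a log2 fold change of 0.15 (95% interval -0.21 to 0.50). Srsf10, which acts as a splicing repressor when dephosphorylated, was at 16.1, 14.5 and 16.2 RPKM in ZP3 Trim-away and at 13.4, 17.4 and 16.2 RPKM in control. The Trim-away values lay inside the control range.

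The founding SR proteins were scarce as transcripts. Srsf1, which promotes the use of weak splice sites, was at 0.856, 1.27 and 0.55 RPKM in ZP3 Trim-away, from 77, 114 and 48 reads, and at 2.12, 0.28 and 0.0806 RPKM in control, from 225, 32 and 8 reads. The controls thus spanned a wider range than the Trim-away pools, on both sides of them. Srsf2, which binds exonic enhancers, was at 0.558, 1.61 and 1.503 RPKM in ZP3 Trim-away and at 0.819, 1.32 and 0 RPKM in control, with 33.2% of its windows shared. Srsf11 was at 1.895, 1.34 and 1.87 RPKM in ZP3 Trim-away and at 1.70, 0.888 and 2.85 RPKM in control, so that the controls again enclosed the Trim-away pools. Srsf1, Srsf2, Srsf4, Srsf6, Srsf9 and Srsf12 were below the mean of 1 RPKM needed for the test. Srsf12, chosen after its values were seen, had 17 reads in Trim-away 1 and 0 reads in the other 5 pools.

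The proteins of the snRNP particles were among the most abundant members. SmD1, SmD3 and SmB, encoded by Snrpd1, Snrpd3 and Snrpb, belong to the ring that surrounds the snRNA, and Snrpb2 encodes the B″ protein that binds a stem-loop of the U2 RNA. Snrpb2 was at 94.2, 104.7 and 90.0 RPKM in ZP3 Trim-away and at 71.1, 62.8 and 80.3 RPKM in control. All Trim-away pools were above all controls, with a log2 fold change of 0.43 ± 0.14 (limma adjusted p = 0.141). Snrpd1 was at 88.3, 108.5 and 91.2 RPKM in ZP3 Trim-away and at 79.6, 74.7 and 69.2 RPKM in control. Its groups did not overlap either, with a log2 fold change of 0.36 ± 0.13 (limma adjusted p = 0.184).

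Snrpd3, which pairs with SmB in the ring, was at 82.1, 102.4 and 68.4 RPKM in ZP3 Trim-away and at 72.02, 86.6 and 96.1 RPKM in control. Trim-away 3 was the lowest pool and Trim-away 2 the highest, and the log2 fold change was -0.02 (95% interval -0.42 to 0.38). Snrpb had 91, 184 and 106 reads in ZP3 Trim-away and 0, 75 and 179 reads in control, or 2.92, 5.91 and 3.4997 RPKM against 0, 1.89 and 5.23 RPKM. The control pools ran from no read to nearly the highest Trim-away pool, and the log2 fold change of 0.92 ± 0.62, the largest of the 55 genes, had a limma adjusted p of 0.451. On the RPKM scale Snrpb, which shared no window with another gene, averaged 3.24 over the 6 pools, far below Snrpd1 and Snrpd3. Other genes of the ring were also low. Snrpd2 (SmD2) averaged 0.801 RPKM, and Snrpf (SmF) 3.32 RPKM, an uncertain level since 86.2% of its windows were shared. Snrpe, which encodes a further protein of the Sm ring, was at 63.8, 82.4 and 60.5 RPKM in ZP3 Trim-away and at 62.5, 58.2 and 79.1 RPKM in control. The groups overlapped, and the log2 fold change was 0.05 (95% interval -0.34 to 0.44).

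Snrpn encodes SmN, a relative of SmB from an imprinted gene that is expressed from the paternal allele in somatic tissues. It was at 8.62, 8.28 and 9.57 RPKM in ZP3 Trim-away and at 3.44, 12.3 and 14.6 RPKM in control. Control 1 was below and controls 2 and 3 were above all Trim-away pools, and the log2 fold change was 0.01 (95% interval -0.98 to 1.01). Without control 1 it was -0.55. Of its windows 22.7% were shared, among others with Snurf, which lies on the same transcript.

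The U2AF heterodimer recognises the end of the intron, U2AF2 at the polypyrimidine tract and U2AF1 at the AG. U2af1 was at 8.16, 8.27 and 7.25 RPKM in ZP3 Trim-away and at 11.2, 8.85 and 6.56 RPKM in control. U2af2 was at 5.56, 6.43 and 6.92 RPKM in ZP3 Trim-away and at 5.76, 6.004 and 8.58 RPKM in control. For both the groups overlapped, with log2 fold changes of -0.12 (95% interval -0.69 to 0.44) and -0.08 (95% interval -0.65 to 0.50). U2af1l4, a shorter paralog of U2AF1, was at 0.383, 0.307 and 1.66 RPKM in ZP3 Trim-away and at 0.39, 0.423 and 0.695 RPKM in control and was not tested.

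The SF3A and SF3B complexes are parts of the U2 snRNP, and SF3B1 holds the branch point adenosine. Of these genes, Sf3b1 and Sf3b2 were lower in every Trim-away pool than in any control. Sf3b2 was at 14.6, 13.7 and 14.9 RPKM in ZP3 Trim-away and at 27.4, 19.0 and 23.8 RPKM in control. Its Trim-away pools were tightly grouped and its controls were not, and the log2 fold change was -0.65 ± 0.19 (limma adjusted p = 0.118, 95% interval -1.08 to -0.22). Sf3b1 was at 39.99, 36.1 and 37.2 RPKM in ZP3 Trim-away and at 53.6, 40.7 and 44.2 RPKM in control. Trim-away 1 and control 2 were nearly equal, and the log2 fold change was -0.27 ± 0.15 (limma adjusted p = 0.364).

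The genes of SF3A differed from each other in sign. Sf3a1 was at 16.8, 16.1 and 22.2 RPKM in ZP3 Trim-away and at 31.4, 21.0 and 21.7 RPKM in control. Trim-away 3 lay above controls 2 and 3, and the log2 fold change was -0.40 ± 0.22 (limma adjusted p = 0.356). Sf3a3 was at 33.3, 31.4 and 31.6 RPKM in ZP3 Trim-away and at 32.5, 35.5 and 31.6 RPKM in control. Its log2 fold change of -0.05 had one of the narrower intervals, -0.37 to 0.28. Sf3a2 was at 7.02, 4.69 and 6.89 RPKM in ZP3 Trim-away and at 4.52, 4.89 and 0.736 RPKM in control. Its log2 fold change of 0.89 ± 0.48 (limma adjusted p = 0.347) came with a control 3 far below the other 5 pools.

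The Prpf genes encode proteins first known from pre-mRNA processing mutants of yeast and act at different stages of assembly and catalysis, and their log2 fold changes ran in both directions. Prpf38a encodes a protein that joins the tri-snRNP before the spliceosome is activated. It was at 32.4, 38.3 and 32.8 RPKM in ZP3 Trim-away and at 21.7, 21.2 and 21.9 RPKM in control. The controls were within 1 RPKM of each other and well below the lowest Trim-away pool. The log2 fold change of 0.65 ± 0.15 (95% interval 0.30 to 1.00) had the smallest adjusted p of the 55 genes, 0.073 by limma, and it passed at 0.0349 when the test was restricted to genes averaging 10 RPKM or more.

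PRPF8 forms the core of the U5 snRNP around the catalytic RNA, and PRPF6 bridges the U5 and U4/U6 particles. Prpf8 was at 1.62, 1.78 and 1.44 RPKM in ZP3 Trim-away and at 3.81, 3.20 and 3.11 RPKM in control. The highest Trim-away pool was well below the lowest control, and the log2 fold change was -0.74 ± 0.30 (limma adjusted p = 0.218, 95% interval -1.42 to -0.07). Prpf6 was at 82.5, 83.4 and 83.2 RPKM in ZP3 Trim-away and at 110.4, 111.2 and 92.6 RPKM in control. The Trim-away pools lay within 1 RPKM of each other and below control 3, the lowest control, and the log2 fold change was -0.33 ± 0.12 (limma adjusted p = 0.190).

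Prpf18, a factor of the second catalytic step that was named after its values were seen, was at 19.6, 20.6 and 18.3 RPKM in ZP3 Trim-away and at 13.3, 18.1 and 18.2 RPKM in control. Only control 1 was clearly apart, and the log2 fold change was 0.24 ± 0.19 (limma adjusted p = 0.533). Prpf4 and Prpf40b were not tested.

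Of the 17 tested hnRNP genes, 11 had a negative log2 fold change, and 0 were higher in every Trim-away pool and 1 (5.88%) lower, against 20.3% and 6.34% of all genes tested. Hnrnpu, which encodes a large nuclear matrix protein that binds RNA and DNA, was at 7.02, 6.15 and 6.46 RPKM in ZP3 Trim-away and at 10.1, 8.28 and 11.2 RPKM in control. All Trim-away pools were below all controls, with a log2 fold change of -0.52 ± 0.22 (limma adjusted p = 0.253, 95% interval -1.03 to -0.01). Hnrnpab was at 0.639, 0.80 and 0.47 RPKM in ZP3 Trim-away and at 2.61, 2.14 and 0.414 RPKM in control. Control 3 lay below every Trim-away pool while the other controls lay above, and the log2 fold change was -0.63 ± 0.44 (limma adjusted p = 0.467).

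The most abundant hnRNP transcripts overlapped between the groups. Hnrnpc, whose product binds uridine tracts of nascent transcripts, was at 118.3, 141.6 and 113.8 RPKM in ZP3 Trim-away and at 91.5, 105.0 and 129.8 RPKM in control. Control 3 was above Trim-away 1 and 3, and the log2 fold change was 0.20 (95% interval -0.15 to 0.56). Hnrnpa1, which represses exons and competes with SR proteins, was at 73.8, 70.2 and 80.1 RPKM in ZP3 Trim-away and at 82.3, 71.4 and 84.8 RPKM in control, a log2 fold change of -0.09 (95% interval -0.38 to 0.20). Hnrnpa2b1, which also accompanies mRNAs during their transport, was at 21.1, 20.2 and 21.7 RPKM in ZP3 Trim-away and at 24.9985, 23.1 and 20.8 RPKM in control, a log2 fold change of -0.12 (95% interval -0.49 to 0.25).

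Hnrnpk, which binds cytidine-rich RNA, was at 60.85, 65.5 and 70.1 RPKM in ZP3 Trim-away and at 72.9, 56.8 and 57.9 RPKM in control. Control 1 was above all Trim-away pools, and the log2 fold change was 0.07 (95% interval -0.26 to 0.40). For Hnrnpa1, Hnrnpa2b1, Hnrnpc and Hnrnpk the intervals thus left out a log2 fold change of 1 or -1. Hnrnpa0, Hnrnpl and Hnrnpll were not tested.

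Exon length moved with the fold change over the whole table and is given here beside the results for that reason. Across all 9858 tested genes with a length, Spearman's rho between exon length and log2 fold change was -0.305, and across the 55 splicing factor and hnRNP genes it was -0.253; the points are genes of the same 6 libraries and are not independent. Tested genes under 2000 bp had a median log2 fold change of 0.40 and those of at least 6000 bp one of 0.01, while the splicing factor and hnRNP genes in these classes were at 0.06 (4 genes) and -0.11 (22 genes). Between 2000 and 4000 bp the medians were 0.02 for 19 of these genes and 0.29 for all genes, and between 4000 and 6000 bp 0.12 for 10 genes and 0.17 for all. The splicing factor and hnRNP genes were longer, with a median of 5298 bp against 3626 bp for all genes tested. For the 8151 tested genes that are protein coding, as these are by rule, the median length was 4340 bp. The median log2 fold change of those 8151 genes was 0.195.

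The 6 genes higher in every Trim-away pool had exon lengths of 2052 to 7899 bp and the 6 lower ones of 3859 to 11599 bp, with medians of 4424 and 8960 bp. After the trend with length over all genes was removed, the log2 fold changes were 0.56 for Srsf7, 0.55 for Srsf3, 0.49 for Prpf38a, 0.11 for Snrpb2, 0.08 for Prpf18 and -0.03 for Snrpd1. On the same scale lower genes were at -0.80 for Prpf8, -0.74 for Sf3b2, -0.57 for Prpf6, -0.48 for Hnrnpu and -0.24 for Sf3b1. Of the higher genes 5 of 6 kept their sign, and of the lower genes 6 of 6. These genes were picked by their values. Removing the trend also moved the median of all genes from 0.22 to -0.02, so the lower genes had little room to change sign. The median of the 55 genes was then -0.20, against -0.02 for all genes. The part of exon length in these differences was not tested further.

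**Figure D4:**
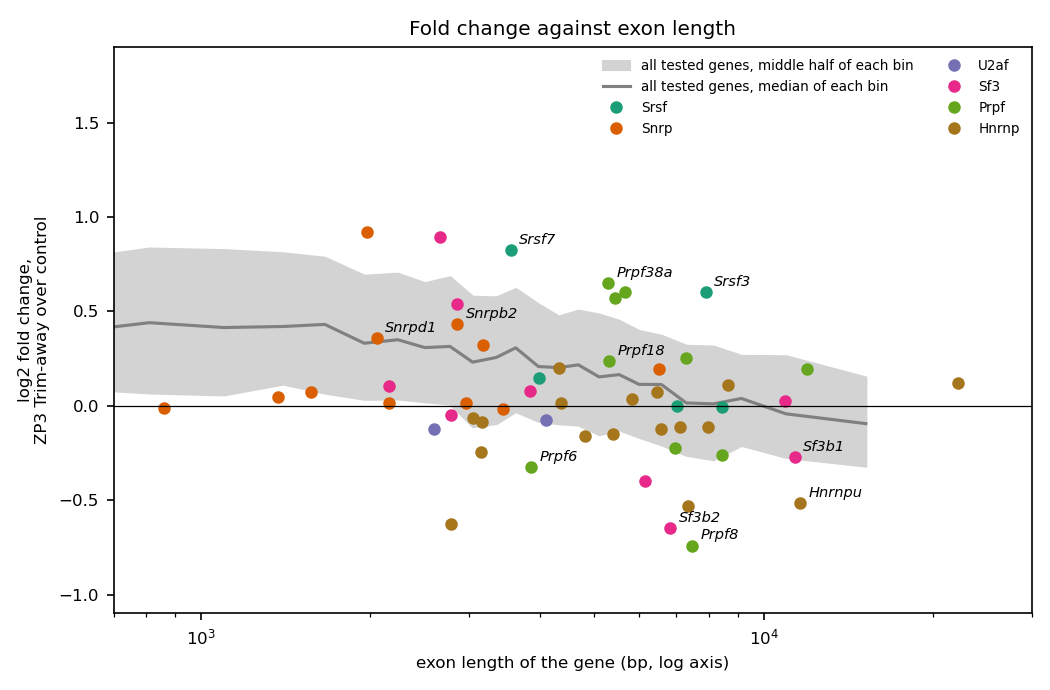
Log2 fold change, ZP3 Trim-away minus control on the log2(RPKM + 1) scale, against exon length in bp on a log axis, for 54 of the 55 tested genes (points, coloured by family, named where the groups did not overlap) over the median and the quartiles of all tested genes in bins of length (grey). The grey median runs down with length. Among the named points, Srsf3, Srsf7 and Prpf38a lie above the grey band while Sf3b2, Prpf6, Prpf8 and Hnrnpu lie below it. Points without a name also leave the band, such as Snrpb and Sf3a2 above it and Sf3a1 and Hnrnpab below it.

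The other genes of the pathway, outside the naming rule, had 0 calls in each of 7 lists by limma, with 29 of the 135 genes tested (21.5%) at an unadjusted p under 0.05, close to the 19.5% of all genes tested. Of 30 tested proteins of U1, U2, U4/U6.U5 and other snRNPs, 21 were positive and 9 negative, the median log2 fold change being 0.18, and 7 (23.3%) were higher and 1 (3.33%) lower in every Trim-away pool, near the 20.3% and 6.34% of all genes tested. The list of LSm proteins holds those that form the ring of U6 and a cytoplasmic decay complex. Lsm10, Lsm11, Lsm12, Lsm14a and Lsm14b, outside these rings, were also listed. Of its 12 tested genes 8 were positive, with a median of 0.14, and the negative ones were Lsm11, Lsm12, Lsm14a and Lsm14b. Without overlap, 4 (33.3%) were higher and 0 lower, against 20.3% and 6.34% of all genes tested. Lsm6 was at 11.3, 17.1 and 12.4 RPKM in ZP3 Trim-away and at 3.78, 7.70 and 6.88 RPKM in control, which is apart from the controls throughout, with a log2 fold change of 1.06 ± 0.29 (limma adjusted p = 0.103). Lsm10, a subunit of the U7 snRNP that processes histone mRNA, was at 63.5, 108.2 and 76.8 RPKM in ZP3 Trim-away and at 48.1, 58.8 and 41.9 RPKM in control.

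Of the 14 listed factors that load Sm rings onto snRNA, the SMN complex and the PRMT5 methylosome, 9 were tested. Without overlap, 1 (11.1%) was higher and 1 (11.1%) lower, against 20.3% and 6.34% of all genes tested. Of the 9 tested genes 8 were positive (88.9%, against 67.3% of all genes tested), with a median of 0.40 against 0.22. The exception was Smn1 itself, at 94.99, 100.2 and 103.3 RPKM in ZP3 Trim-away and at 125.6, 121.6 and 108.6 RPKM in control, lower without overlap, with a log2 fold change of -0.25 ± 0.11 (limma adjusted p = 0.275). Riok1, an adaptor of PRMT5, was at 171.6, 163.3 and 162.6 RPKM in ZP3 Trim-away and at 118.7, 155.3 and 129.1 RPKM in control, higher without overlap. Of 29 tested genes of the PRPF19-associated complex and of the catalytic steps, 21 were positive, with a median of 0.21, and 7 (24.1%) were higher and 1 (3.45%) lower without overlap, again near the 20.3% and 6.34% of all genes tested.

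The exon junction complex, left on mRNA after splicing, had 4 of 10 tested genes positive and a median of -0.18. Its most abundant member Magoh was at 379.6, 499.3 and 398.7 RPKM in ZP3 Trim-away and at 273.2, 346.1 and 462.3 RPKM in control, which overlapped. Rnps1, which activates splicing as part of this complex, was at 14.4, 16.7 and 17.4 RPKM in ZP3 Trim-away and at 25.9, 23.8 and 28.0 RPKM in control. Its groups did not overlap, with a log2 fold change of -0.65 ± 0.17 (limma adjusted p = 0.0903). It passed at 0.0461 among genes averaging at least 10 RPKM, with adjusted p from 0.00378, with the control columns as deposited, to 0.331 over all alternatives. The list of kinases that phosphorylate SR proteins and of phosphatase subunits, with 9 tested, had 4 positive, the kinase genes Clk1 and Clk4 and the phosphatase subunit genes Ppp1cb and Ppp1r8. The 2 members with the extreme values were of the same kinase family. Clk4 was at 1.25, 1.75 and 2.69 RPKM in ZP3 Trim-away and at 0, 1.10 and 0.308 RPKM in control, whereas Clk2 was at 1.16, 2.12 and 1.77 RPKM in ZP3 Trim-away and at 5.37, 3.07 and 3.996 RPKM in control, and neither overlapped.

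Among 36 tested regulators of splice site choice outside the rule, 13 were positive, with a median of -0.10, and 6 (16.7%) were higher and 7 (19.4%) lower without overlap, against 20.3% and 6.34% of all genes tested. Rbm7, a subunit of the nuclear exosome targeting complex, was at 91.5, 97.9 and 106.2 RPKM in ZP3 Trim-away and at 59.5, 58.8 and 65.8 RPKM in control. It was well apart from the controls, with a log2 fold change of 0.67 ± 0.12 and a limma adjusted p of 0.0515. It passed at 0.0497 without control 3 and at 0.0243 when only genes averaging at least 10 RPKM were tested, and the adjusted p ran from 0.00107 to 0.289 over all alternatives. Pcbp3, a poly(C)-binding protein, was at 45.5, 45.5 and 47.1 RPKM in ZP3 Trim-away and at 92.6, 68.5 and 60.3 RPKM in control. All Trim-away pools were below all controls, with a log2 fold change of -0.65 ± 0.17 (limma adjusted p = 0.0930). It passed at 0.0461 among genes averaging at least 10 RPKM, with adjusted p from 0.000787 to 0.341 over all alternatives.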

How the data were processed

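RNA-seq libraries from 3 ZP3 Trim-away and 3 control pools were analysed, grouped by sample title. The authors deposited 1 table of RPKM values for 25731 genes. Per the submitters' processing notes, reads were checked with FastQC 0.11.9 and processed with Trimmomatic, HISAT2 and SAMtools; according to the study's methods, 72-base single reads were counted with htseq-count. No version of the remaining tools is given in the sources used here. The notes name GRCm39 and the methods GRCm38, and the annotation used here is GENCODE M21 (GRCm38), so no coordinates are printed. The low-input kit primes on poly(A) tails.

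In the deposited table the columns of control replicates 2 and 3 were never below 0.5 times replicate 1 (0 of 13202 genes) and were exactly 0.5 times it in 2059 and 2090 genes. Each was therefore taken as a mean with replicate 1 and separated as 2 times the column minus replicate 1, which gave 0 negative values. RPKM times exon length and library total gave whole reads (within 0.01) for 95.0% to 96.0% of values, against 9.6% and 9.0% for these 2 columns before separation. Library totals were obtained in the same step.

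The groups were compared with limma 3.58.1 (R 4.3.3, trended prior, two-sided, Benjamini-Hochberg at 0.05 over all tested genes) on log2(RPKM + 1), for genes averaging 1 RPKM or more over the 6 libraries. The script was tested on simulated data. Windows of 72 bases were compared over all annotated transcripts, taking the longest transcript of each member. Python 3.11.15, pandas 2.3.3, numpy 2.4.6, scipy 1.17.1 and matplotlib 3.10.9 were used. Named genes were, per family, the 3 most abundant and those with the largest and smallest log2 fold change, a fixed list (Srsf1, Srsf2, Srsf3, Sf3b1, Snrpb, Snrpn, Prpf8, U2af1, U2af2, Hnrnpa1, Hnrnpa2b1, Hnrnpk, Hnrnpu), in each pathway list the most abundant and the extreme genes, and Trim21 and Zp3. Snrpe, Prpf18 and Srsf12 were added after their values were seen. Members, lists and separation were chosen with earlier results of these data known. Alternatives were the columns as deposited, pseudocount, filter, scaling, exon length, weights, replicate block and leaving out each pool. The separate values of 1 gene are not reported here and that gene is left out of the figures.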

Additional observations from a re-analysis of the deposited data

How the results depend on the processing

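No splicing factor or hnRNP gene passed limma's test under 8 of the 10 other processing choices or without any 1 pool, while the count over all genes, 63, moved widely. With the control columns as deposited, in which control 1 enters all 3 control columns and the spread of the controls is reduced by construction, 3707 genes and 16 of these genes passed, their median was 0.072, that of Prpf -0.034, and 10 higher and 12 lower genes did not overlap (33.1% and 18.2% of all genes). On those columns Hnrnpk turned to -0.048, Snrpd3 to 0.086, Srsf10 to 0.094, U2af2 to 0.0071 and Srpk1 to 0.0002. With a minimum mean of 10 RPKM, 368 genes and 1 of these genes, Prpf38a, passed, and the medians of the remaining Sf3 and Prpf genes were -0.16 and -0.043. A pseudocount of 0.1 RPKM gave 19 genes and Srsf11 at 0.035, no filter gave 0 (3323 at an unadjusted p under 0.05), and weights per pool gave 100, with Srsf11 at 0.017 and Snrpn at -0.12.

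The choice of scaling set the level of 0. Median-ratio scaling gave 12 genes, a median of -0.16 over these genes, family medians of -0.048 (Srsf), -0.16 (Sf3), -0.13 (Snrp), 0.047 (Prpf), -0.28 (Hnrnp) and -0.28 (U2af), and 2 higher and 12 lower genes without overlap, and turned Hnrnpk to -0.12, Srsf5 to -0.048, Snrpn to -0.16 and Syf2 to -0.018. Quantile normalization gave 24 genes, a median of -0.17, family medians of -0.011, -0.11, -0.13, -0.052, -0.28 and -0.26 in the same order, and 3 higher and 14 lower (11.6% and 13.6% of all genes), with Hnrnpk at -0.12, Srsf5 at -0.011, Snrpn at -0.13 and Syf2 at -0.030. Leaving Trim21 out of the totals gave 19 genes and medians of -0.072 over these genes, 0.23 (Srsf), -0.074 (Sf3), -0.21 (Hnrnp) and -0.20 (U2af), with Hnrnpk at -0.034 and Snrpn at -0.079. Removing the trend with exon length gave 35 genes, medians of -0.20 over these genes, -0.038 (Srsf), -0.24 (Sf3), -0.29 (Snrp), -0.21 (Hnrnp) and -0.38 (U2af), and 15 lower genes without overlap (13.4% of all genes). It turned Hnrnpc to -0.012, Hnrnpk to -0.026, Snrpd1 to -0.029, Srsf5 to -0.088, Snrpn to -0.37, Magoh to -0.19, Syf2 to -0.21, Snrnp27 to -0.11 and Srpk1 to 0.017. In each of these 4 settings the median of the splicing factor and hnRNP genes was below that of all genes, by 0.16 to 0.21. The 19 tested genes with no shared window, a choice made after seeing the data, had a median of -0.047, with 0 called. Of these, 4 (21.1%) were higher and 5 (26.3%) lower without overlap, against 20.3% and 6.34% of all genes tested. The 2 sets are unlike: 57.9% of all genes tested had no shared window, and the median exon lengths were 6584 bp for the 19 genes and 3626 bp for all. The shares among all tested genes with no shared window were not computed.

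Leaving out 1 pool at a time gave 0 to 300 genes, with 0 without any 1 of the Trim-away pools (1100 to 1238 at an unadjusted p under 0.05) and 162, 300 and 125 without control 1, 2 and 3. The medians ran from -0.044 to 0.054 over these genes, 0.095 to 0.38 for Srsf, -0.081 to 0.24 for Sf3, 0.038 to 0.24 for Snrp, -0.023 to 0.24 for Prpf and -0.14 to -0.023 for Hnrnp, and the genes without overlap were 7 to 11 higher and 8 to 11 lower. Named genes near 0 changed sign: U2af1 ran from -0.30 to 0.042, U2af2 from -0.17 to 0.081, Snrpn from -0.55 to 0.35, Snrpd3 from -0.17 to 0.12, Sf3a3 from -0.081 to 0.0012, Srsf10 from -0.10 to 0.072, Srsf11 from -0.26 to 0.25, Lsm12 from -1.01 to 0.016, Syf2 from -0.029 to 0.33 and Srpk1 from -0.094 to 0.063. Of 48 named genes with an estimate, 32 kept 1 direction throughout.

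Deviations of pools with the same replicate number correlated at -0.06, 0.02 and -0.05, so no pairing by number was visible. These values cannot tell whether such pools were collected together. With the replicate block 0 genes passed (1733 at an unadjusted p under 0.05), and the block changed no call for a splicing factor or hnRNP gene. The causes of these shifts were not tested. Of the 68 genes, 13 were too weakly expressed to be tested.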
